A study of Mus musculus with 8 samples.

Results

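The MHC class I genes examined here were 6 named genes, *B2m*, *H2-K1*, *H2-D1*, *H2-T23*, *Tap1* and *Tapbp*, looked up by symbol among 16214 gene rows of the bulk tables and 18836 gene rows of the single-cell tables. *B2m*, *H2-K1*, *H2-D1*, *Tap1* and *Tapbp* had a row in both bulk tables and all 6 plates. *H2-T23* had a row only in both traced plates and in the plate of knock-in mouse 3, where it held 1 transcript. Their levels were compared between keratinocytes of the lower hair follicle (HF), which includes the bulge and is marked by *Postn* and *Cd34*, and keratinocytes of the interfollicular epidermis (IFE) and upper HF as well as skin T cells.

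All mice were adult C57BL/6 animals and all carried the *Troy*-EGFP-IRES-CreERT2 allele, in which the cassette takes the place of the *Troy* (*Tnfrsf19*) coding region, so no group had an unmodified *Troy* locus. The knock-in animals were either sorted in bulk (2 mice, each giving all viable cells, ITGA6bright *Troy*-EGFP+ cells and ITGA6bright *Troy*-EGFP- cells, 6 libraries in all) or sorted as single cells (4 mice, 1 plate of 384 wells each). The traced animals (2 mice, 1 plate each) also carried Rosa26-LSL-tdTomato and were collected 7 days after a single injection of tamoxifen, so that EGFP+ cells at that time and their progeny could be tdTomato+. Per the study's methods the traced mice were homozygous for both alleles and male, whereas both sexes were used for the other sorts and the zygosity of the knock-in mice is not given in the sources used here. Epidermis came from back skin in telogen, the resting phase of the hair cycle. ITGA6 (CD49f) is an integrin that is high on basal cells. The sort gate of each well was not used here.

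MHC class I molecules show peptides from inside the cell to CD8 T cells. The molecule consists of a heavy chain, here *H2-K1* and *H2-D1* for the classical chains and *H2-T23* for the non-classical Qa-1, and of beta-2-microglobulin, the light chain encoded by *B2m*. Peptides reach the endoplasmic reticulum through the TAP transporter, of which *Tap1* encodes a subunit, and are loaded with the help of tapasin, encoded by *Tapbp*. Transcription of these genes is driven by the transactivator NLRC5 and is raised by interferon-gamma, whose receptor includes IFNGR1. The lower part of the growing hair follicle and the bulge are known as sites of relative immune privilege, where class I is described as low.

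In the mouse genome (GRCm38), *B2m* lies on chromosome 2 (122147687 to 122153082), whereas the other 5 genes lie in the H2 complex on chromosome 17. In order along that chromosome these were *Tapbp* (33919478 to 33929290), *H2-K1* (33996012 to 34000619), *Tap1* (34187556 to 34197225), *H2-D1* (35263094 to 35267497) and *H2-T23* (36029977 to 36032701). Because *B2m*, *H2-K1*, *H2-D1* and *Tap1* are the members called lower in lower HF-like or EGFP+ cells in at least 1 comparison, stretches of their RefSeq promoters (GRCm38) are shown here, written 5′ to 3′ on the strand of the gene, with the capitals marking motif matches. For *B2m* the 200 bases before the annotated start are given (chr2:122147487-122147686, plus strand):
B2m: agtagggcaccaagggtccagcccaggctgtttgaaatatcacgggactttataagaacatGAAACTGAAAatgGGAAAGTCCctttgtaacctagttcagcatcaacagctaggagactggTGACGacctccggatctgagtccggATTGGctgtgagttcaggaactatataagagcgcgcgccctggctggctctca
For *H2-K1* the 200 bases before the most upstream transcript start of the promoter table are given (chr17:34000348-34000547, minus strand), a start that lies inside the outer bounds of the gene given above:
H2-K1: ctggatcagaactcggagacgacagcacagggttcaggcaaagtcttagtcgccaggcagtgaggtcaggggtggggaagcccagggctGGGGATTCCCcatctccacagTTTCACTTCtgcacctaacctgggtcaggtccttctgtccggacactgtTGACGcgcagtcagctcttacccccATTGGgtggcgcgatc
For *H2-D1* (chr17:35262923-35262952, plus strand) and *Tap1* (chr17:34187458-34187487, plus strand) a stretch of 30 bases is given, chosen to hold the pair of *H2-D1* matches farthest from the start and the match of *Tap1*:
H2-D1: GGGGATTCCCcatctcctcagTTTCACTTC
Tap1: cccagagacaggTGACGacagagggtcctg

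The motifs searched on both strands of the 200 bases before each start were GGGGATTCCC and GGAAAGTCC (NF-kappaB type), TTTCACTTC and GAAANNGAAA (interferon response type, N being any base), TGACG (the core of the X2 box) and CCAAT (the Y box, printed as ATTGG where it lies on the other strand). These letters were chosen with the sequences of the members in view. GGGGATTCCC was copied from the *H2-K1* promoter and GAAANNGAAA from that of *B2m*, with the middle letters left free. The matches of *H2-K1* and *B2m* to these motifs were therefore fixed in advance. GGGGATTCCC was present in 0.067% of 32851 mouse promoters, GGAAAGTCC in 0.247%, TTTCACTTC in 0.307%, GAAANNGAAA in 2.27%, TGACG in 15.7% and CCAAT in 29.3%. *H2-K1* and *H2-D1* both held GGGGATTCCC followed by TTTCACTTC, and the 30 bases that span this pair were identical at 29 of 30 positions. *B2m* held GAAANNGAAA and GGAAAGTCC in its place, and *Tap1* held only TGACG. *H2-D1* also held TGACG and CCAAT nearer to its start, outside the bases shown. None of the matches shown overlapped another, and a match describes letters and not binding.

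Depth was low and differed between mice. The bulk libraries held 157537 to 453005 counts, of which 12.5% to 16.1% were mitochondrial. After removing wells under 1000 transcripts, 71, 129, 218 and 262 wells were kept from knock-in mice 1 to 4 and 229 and 200 wells from traced mice 1 and 2. The plates of knock-in mice 1 and 2 were shallower than those of mice 3 and 4 (236806 and 451928 against 827573 and 1064649 transcripts per plate). Plates also differed in which genes had a row, as for *H2-T23*, and the 2 experiments were fitted separately. Reads shared by near-identical class I heavy chains cannot be assigned to 1 gene with certainty, and the values of *H2-K1*, *H2-D1* and *H2-T23* are uncertain for this reason.

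Wells were clustered without the class I genes, the class I pathway genes and the interferon genes, and clusters were named after markers. Of 680 wells of the knock-in mice, 154 were lower HF-like and 74 upper HF-like, 164 were IFE I-like (basal) and 111 IFE II-like (committed), and the immune cells comprised 43 T cell-like and 39 Langerhans cell-like wells. Of 429 wells of the traced mice, 100 were lower HF-like, 46 upper HF-like, 126 IFE I-like, 43 IFE II-like and 27 T cell-like. The remaining wells of the knock-in mice were 57 necrotic-like and 38 that stayed unnamed. Of the traced wells 87 stayed unnamed, in a cluster led by *Dct*, *Vim*, *Sostdc1* and *Aldh3a1*, with *B2m* at 4690 and 4190, *H2-K1* at 922 and 744 and *Tap1* at 162 and 112 CPM in mice 1 and 2. CPM are transcripts of the gene scaled to a common total of the summed wells of a mouse, without TMM factors for the unnamed wells and with them for all classes that follow. At a clustering resolution of 0.5 no traced cluster of keratinocytes stayed unnamed and the upper HF-like class held 133 wells in place of 46. *Postn* and *Cd34* were among the markers that named the lower HF-like class, so that their values describe it. *Postn*, which encodes the matrix protein periostin, was at 4860 to 5800 CPM in knock-in mice and 2140 to 2470 CPM in traced mice. *Cd34*, a surface marker of bulge stem cells, was at 1260 to 2340 CPM and 1230 to 1680 CPM, respectively. In every other class of both experiments *Postn* was at most 359 CPM and *Cd34* at most 39.9 CPM. The whole list of 8 lower HF markers, which includes *Krt15*, separated the classes less. Its summed level was 15600 to 25600 CPM in lower HF-like and 2790 to 9500 CPM in IFE I-like sums of the knock-in mice, but 25000 to 33800 CPM and 20800 to 24700 CPM in those of the traced mice. The 6 IFE II markers summed to 1960 to 13100 CPM in lower HF-like sums of the traced mice, against 39000 to 43100 CPM in IFE II-like sums, and their part in the class I values was not tested.

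In the knock-in mice the light chain had its lowest mean in the lower HF. There *B2m* was at 1850, 3760, 2820 and 2560 CPM in lower HF-like wells of mice 1 to 4. In IFE I-like wells of the same mice it was at 4420, 5890, 4490 and 4220 CPM, so that the groups did not overlap. Upper HF-like wells, which had enough wells in mice 2 to 4 only, held the highest *B2m*, 7060, 6690 and 6150 CPM. Ordered by the mean, *B2m* fell from upper HF-like (6630 ± 458 CPM, SD, n = 3) to IFE I-like (4760 ± 765, n = 4), Langerhans cell-like (4420 ± 191, n = 2), T cell-like (3790 ± 1070, n = 3), IFE II-like (3360 ± 594, n = 4) and lower HF-like wells (2750 ± 790, n = 4). Upper HF-like and IFE I-like wells did not overlap, whereas each later neighbour in this order overlapped with the next.

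**Figure D1:**
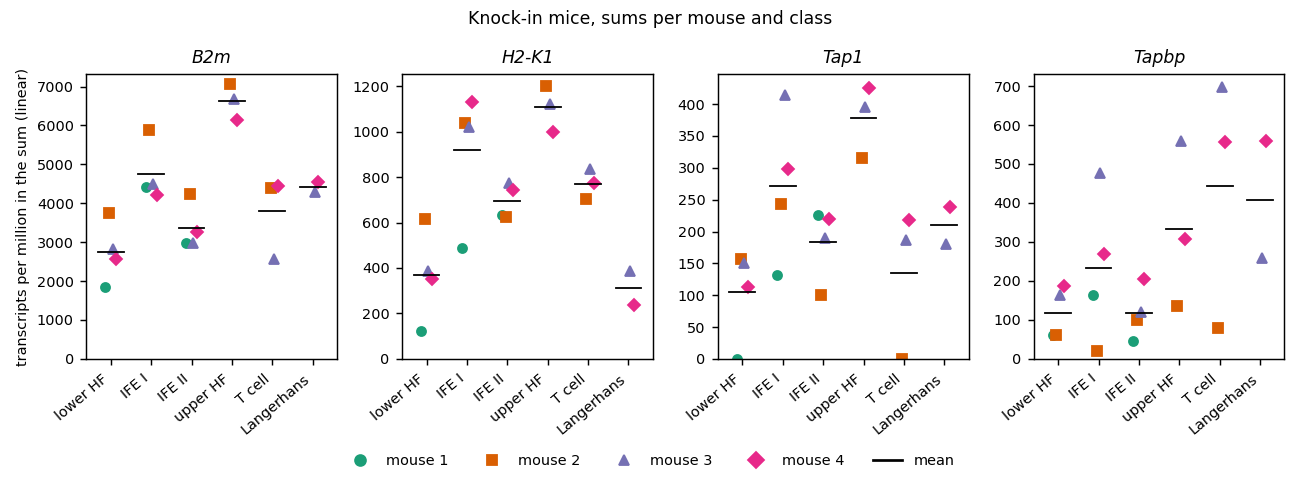
*B2m*, *H2-K1*, *Tap1* and *Tapbp* in the wells of each class, summed per knock-in mouse, in TMM-scaled CPM on a linear axis that starts at 0; each symbol is 1 mouse and the bar is the mean. All lower HF-like sums of *B2m* (1850 to 3760) and *H2-K1* (123 to 616) lie below all upper HF-like sums (6150 to 7060 and 1000 to 1200).

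The classical heavy chain *H2-K1* had its highest mean in upper HF-like and its lowest in Langerhans cell-like wells. In lower HF-like wells it was at 123, 616, 385 and 353 CPM, the first value resting on 2 transcripts in 7 wells of mouse 1. In IFE I-like wells it was at 490, 1040, 1020 and 1130 CPM, and the groups overlapped only through the IFE I-like wells of mouse 1. IFE II-like wells, at 633, 625, 773 and 744 CPM, lay just above the highest lower HF-like value. The upper HF-like values were 1200, 1120 and 1000 CPM and the T cell-like values of mice 2 to 4 were 703, 837 and 775 CPM. Langerhans cell-like wells of mice 3 and 4 were at 388 and 239 CPM. Ordered by the mean, *H2-K1* fell from upper HF-like (1110 ± 101 CPM, SD, n = 3) to IFE I-like (920 ± 291, n = 4), T cell-like (772 ± 67.1, n = 3), IFE II-like (694 ± 75.8, n = 4), lower HF-like (369 ± 202, n = 4) and Langerhans cell-like wells (314 ± 105, n = 2). Of these neighbours only IFE II-like and lower HF-like wells did not overlap.

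For the peptide transporter and tapasin the counts were smaller. *Tap1* was at 0, 157, 151 and 113 CPM in lower HF-like wells of mice 1 to 4, against 131, 243, 415 and 298 CPM in IFE I-like wells and 226, 100, 190 and 220 CPM in IFE II-like wells. All 3 upper HF-like values of *Tap1*, 315, 395 and 426 CPM, exceeded all lower HF-like values. *Tapbp* scattered more, at 61.6, 60.4, 163 and 186 CPM in lower HF-like wells, 163, 21.1, 477 and 270 CPM in IFE I-like wells and 135, 559 and 307 CPM in upper HF-like wells. In T cell-like wells *Tapbp* was at 78.1, 697 and 556 CPM, the highest mean of the 6 classes, and the lower HF-like and IFE II-like means were alike (118 ± 66.2 and 117 ± 66.3 CPM, SD, n = 4).

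The second classical heavy chain, *H2-D1*, was too low in the knock-in plates to pass the filter of the main edgeR test. DESeq2, run without this filter, called it in no comparison of these mice. It held 0, 10, 3 and 2 transcripts in lower HF-like wells of mice 1 to 4 and 3, 13, 4 and 7 transcripts in IFE I-like wells. *H2-T23* held 1 transcript in all classified wells, in a lower HF-like well of mouse 3.

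Comparing the lower HF with the upper HF, 3 of the 4 members tested were lower, *B2m*, *H2-K1* and *Tap1*, against a background of 6.08% of 3058 genes called in either direction and 3.07% called lower. The fitted log2 fold change of *B2m* was -1.27 ± 0.322 (SE; adjusted p = 0.0156, edgeR quasi-likelihood test). For *H2-K1* it was -1.48 ± 0.368 (adjusted p = 0.0130, edgeR) and for *Tap1* -1.61 ± 0.482 (adjusted p = 0.0474, edgeR). *Tapbp* had a log2 fold change of -1.36 ± 0.676 and missed the threshold (adjusted p = 0.350, edgeR), but passed it when the mouse was a block (-1.22, adjusted p = 0.019). Within each of the 3 mice with both classes, all 4 genes were lower in the lower HF. The share of all genes with a like direction in every mouse was not counted.

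These calls depended on single mice, on the filters and on how wells were classed. All 3 were lost in edgeR with no filter on low counts (adjusted p = 0.202 to 0.347) and with wells of at least 2000 transcripts (adjusted p = 0.0506 to 0.108). *B2m* also lost its call with at least 10 wells in a sum (adjusted p = 0.0503), and *Tap1* with 3 other clustering settings (adjusted p = 0.0601 to 0.115). Without mouse 3 no member passed (*B2m* -1.22, *H2-K1* -1.42 and *Tap1* -1.68), likewise without mouse 4 (-1.31, -1.54 and -1.51), and without mouse 1 only *H2-K1* did (*B2m* -1.07 and *Tap1* -1.40). Over all genes tested, 186 were called with all mice, 45 without mouse 3 and 42 without mouse 4. All 3 calls held with DESeq2 and with the mouse as a block. With wells classed directly by at least 2 marker transcripts (*Postn* plus *Cd34* for the lower HF), the values were -0.71 for *B2m*, -1.15 for *H2-K1* and -1.19 for *Tap1*, and none passed, as in the comparison with IFE I that follows.

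Against basal IFE, *H2-K1* was lower in the lower HF, with a log2 fold change of -1.24 ± 0.345 (SE; adjusted p = 0.0242, edgeR). This was 1 of 4 members tested, with 7.42% of 3058 genes called in either direction and 2.55% called lower. *B2m* (-0.78 ± 0.302, adjusted p = 0.152, edgeR) and *Tap1* (-1.19 ± 0.453, adjusted p = 0.142, edgeR) missed the threshold, but passed it when the mouse was a block (-0.78, adjusted p = 0.00238, and -1.23, adjusted p = 0.00499), and both were lower in the lower HF within 4 of 4 mice. *Tapbp* was at -0.89 ± 0.633 (adjusted p = 0.598, edgeR) and lower in 3 of 4 mice. *Tap1* was called without mouse 2 (-1.39). The *H2-K1* call was lost without mouse 3 (-1.13) and without mouse 4 (-1.10). It was also lost in edgeR with no filter (-1.34, adjusted p = 0.172), with wells of at least 2000 transcripts (-0.99, adjusted p = 0.0798) and with wells classed by marker transcripts (-0.86, adjusted p = 0.297). DESeq2 called *B2m* lower as well (-0.65, adjusted p = 0.0410).

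Against committed IFE, no member passed edgeR's test, 1 of 4 had an unadjusted p under 0.05, and DESeq2 called none; 11.5% of 3058 genes were called in either direction and 4.25% lower. *H2-K1* had a log2 fold change of -0.83 ± 0.349 (adjusted p = 0.156, edgeR) and passed when the mouse was a block (-0.85, adjusted p = 0.0115). *B2m* was at -0.28 ± 0.301, *Tap1* at -0.58 ± 0.474 and *Tapbp* at -0.02 ± 0.662.

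Against T cells, likewise no member passed edgeR's test, although 2 of 4 had an unadjusted p under 0.05 and DESeq2 called 2; 28.1% of 3058 genes were called in either direction and 11.3% lower. *Tapbp* had a log2 fold change of -1.85 ± 0.709 (adjusted p = 0.0536, edgeR) and *H2-K1* of -0.97 ± 0.389 (adjusted p = 0.0651, edgeR). With the mouse as a block in edgeR, *Tapbp* (-1.67, adjusted p = 0.000571) and *H2-K1* (-0.88, adjusted p = 0.0239) passed, as they did without mouse 2 (-1.93 and -1.34). *B2m* was at -0.46 ± 0.326 and *Tap1* at -0.39 ± 0.587. The 3 T cell-like sums were small, 9685 to 66413 transcripts from 6 to 25 wells.

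RNA of immune cells was low in all keratinocyte classes of the knock-in mice. The summed level of 8 T cell markers was 0 to 79.8 CPM in lower HF-like, 0 to 60.6 CPM in IFE I-like and 0 to 45.0 CPM in upper HF-like sums, against 10500 to 19400 CPM in T cell-like sums, and *Cd2* and *Il2rb* were at 0 in the lower HF. The summed level of 7 Langerhans cell markers was 0 to 1140 CPM in lower HF-like, 97.8 to 1240 CPM in IFE I-like and 384 to 1370 CPM in upper HF-like sums, against 126000 to 147000 CPM in Langerhans cell-like sums. Of 5 fibroblast markers, 3 were detected in the lower HF, with a summed level of 443 to 966 CPM, and *Col1a1* and *Col3a1* were at 0 there. Their sum reached 381 CPM in IFE I-like and 39.6 CPM in upper HF-like sums. In the traced mice 3 of 5 were detected in the lower HF, with *Col3a1* and *Dcn* at 0, and the sum was 1170 to 1220 CPM there, 133 to 252 CPM in IFE I-like and 0 to 13.3 CPM in upper HF-like sums. The traced T cell and Langerhans cell sums were at most 28.2 and 151 CPM in keratinocyte classes. The part of these differences in the class I values was not tested.

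**Figure D2:**
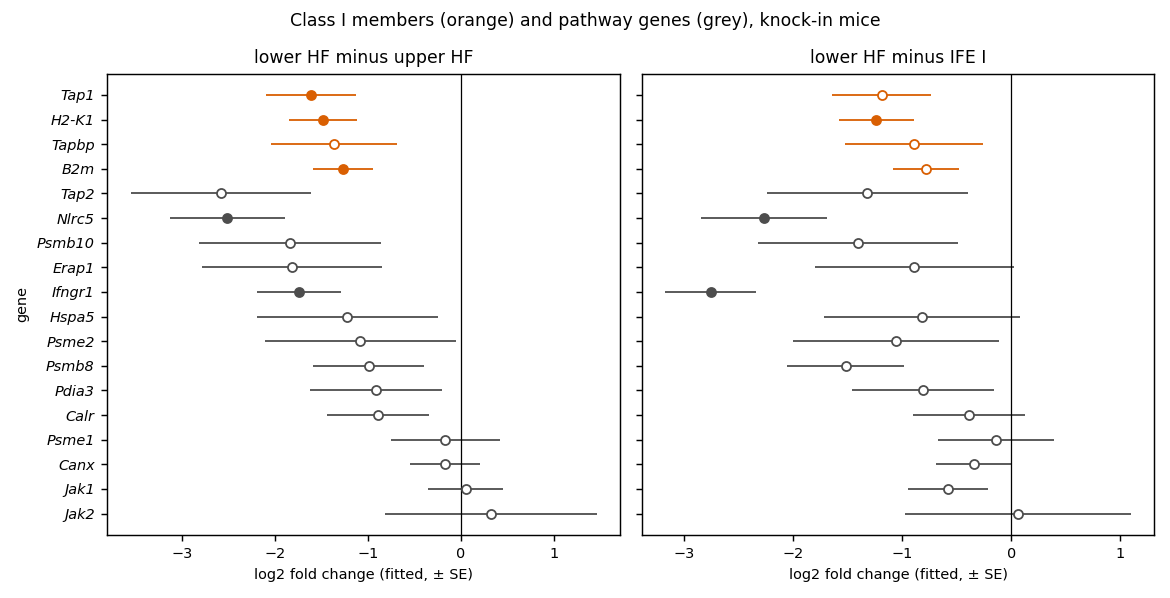
Fitted log2 fold change (± SE) of the 4 class I members tested (orange) and of 14 class I pathway genes (grey) in knock-in mice, lower HF minus upper HF on the left and lower HF minus IFE I on the right; filled points have an adjusted p under 0.05 (edgeR). All 4 members lie left of 0 in both panels, and *Nlrc5* and *Ifngr1* are the pathway genes that are filled.

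Further groups of genes were counted whole, 29 genes of the class I pathway (peptide trimming and loading, immunoproteasome, regulators and other class I chains) and 17 interferon response genes. Of the pathway genes 14 were tested in the knock-in mice. The same 2 were called lower in the lower HF in each comparison with IFE I, IFE II and upper HF: *Nlrc5*, the transactivator of class I genes, and *Ifngr1*, the ligand-binding chain of the interferon-gamma receptor. Over all genes tested 2.55%, 4.25% and 3.07% were called lower in these comparisons, and 7.42%, 11.5% and 6.08% in either direction. The median log2 fold change over the 14 genes was -0.86 against IFE I, -0.27 against IFE II and -1.04 against upper HF, beside medians of -0.04, -0.02 and 0.00 over all genes tested.

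*Nlrc5* was at 0, 36.2, 23.3 and 33.3 CPM in lower HF-like wells of mice 1 to 4, corresponding to no more than 5 transcripts in a mouse. In IFE I-like wells it was at 65.3, 180, 163 and 143 CPM and in upper HF-like wells at 293, 132 and 109 CPM, with no overlap to the lower HF. The log2 fold changes were -2.27 ± 0.579 against IFE I (adjusted p = 0.0134, edgeR), -1.85 ± 0.597 against IFE II (adjusted p = 0.0450, edgeR) and -2.51 ± 0.619 against upper HF (adjusted p = 0.0126, edgeR). *Ifngr1* was at 61.6, 84.5, 69.9 and 66.6 CPM in the lower HF, a narrow range far below the 620, 444, 429 and 524 CPM of IFE I-like wells. Its log2 fold change against IFE I was -2.76 ± 0.417 (adjusted p = 9.79e-05, edgeR). Against IFE II it was -1.79 ± 0.430 (adjusted p = 0.00547, edgeR) and against upper HF -1.74 ± 0.455 (adjusted p = 0.0194, edgeR). Without mouse 3 the call of *Nlrc5* was lost against all 3 classes (-2.03, -1.48 and -2.52), likewise without mouse 4 (-2.39, -1.92 and -2.94) and, against IFE II, without mouse 1 (-1.76), and it was not tested without mouse 2. With wells classed by marker transcripts the call of *Nlrc5* was lost against IFE I (-1.21, adjusted p = 0.359, edgeR), IFE II (-1.17, adjusted p = 0.273) and upper HF (-1.49, adjusted p = 0.166). Against IFE II it was also lost with DESeq2 (adjusted p = 0.0864) and with 4 edgeR alternatives (no filter, 2000 transcripts in a well, 10 wells in a sum, both experiments; adjusted p = 0.0504 to 0.164), and against upper HF with no filter (adjusted p = 0.0581, edgeR). *Ifngr1* kept its call against IFE I under every alternative run, but lost it against IFE II without mouse 3 or 4 (-1.73 in both cases) and against upper HF without any of the 4 mice (-1.53 to -1.92). In edgeR it also lost it against IFE II with no filter (adjusted p = 0.0616) and by marker transcripts (-1.39, adjusted p = 0.0538), and against upper HF with no filter (adjusted p = 0.228), with 30 principal components (-1.38, adjusted p = 0.0953) and by marker transcripts (-1.19, adjusted p = 0.189).

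With the mouse as a block, 2 more pathway genes were called lower against IFE I (*Psmb8*, an immunoproteasome subunit, and *Psme2*, a proteasome activator subunit), *Jak1* against IFE II and *Tap2* against upper HF. Against T cells the pathway genes called lower were *Jak1*, a kinase of interferon and cytokine receptors (-2.34 ± 0.395, adjusted p = 0.000114, edgeR), and *Psmb10*, another immunoproteasome subunit (-3.51 ± 0.965, adjusted p = 0.00820, edgeR). These were 2 of 14, beside 11.3% of all genes called lower, a share near this background. *Psmb10* lost its call without mouse 3 (-3.52) and without mouse 4 (-3.05). With the block *Hspa5* and *Psmb8* were called lower as well. *Canx* (calnexin), *Psme1* and *Calr* (calreticulin), the pathway genes of the highest mean level (428, 228 and 197 CPM) that edgeR called in no comparison, had log2 fold changes of -0.17 ± 0.380, -0.17 ± 0.586 and -0.89 ± 0.550 against upper HF.

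Of the interferon response genes only 2 were tested in the knock-in mice, and edgeR called neither in any comparison. An unadjusted p under 0.05 was reached by 1 against IFE I and by 1 against T cells, and DESeq2 called none. *Ifitm3*, an interferon-induced membrane protein, was at 0, 266, 105 and 140 CPM in the lower HF and 97.9, 465, 647 and 513 CPM in IFE I-like wells and was called lower against IFE I, and higher against T cells, with the mouse as a block. The interferon response genes next in mean level, *Ifi27*, *Irf9*, *Isg15* and *Cxcl9*, were at 76.9, 51.4, 34.9 and 30.6 CPM.

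The share of wells with a transcript was lower in the lower HF for *B2m* and *H2-K1*. *B2m* was found in 124 of 154 lower HF-like wells (80.5%, exact 95% interval 73.4 to 86.5%) and in 161 of 164 IFE I-like wells (98.2%, 94.7 to 99.6%), at median depths of 2490 and 3217 transcripts. When each well was thinned to 1000 transcripts the shares were 61.0% (52.9 to 68.8%) and 92.1% (86.8 to 95.7%), and no well was shallower than this. In upper HF-like wells *B2m* was found in 74 of 74 wells and in 91.9% (83.2 to 97.0%) after thinning. *H2-K1* was found in 65 of 154 lower HF-like wells (42.2%, 34.3 to 50.4%), falling to 16.9% (11.3 to 23.8%) after thinning. In IFE I-like wells the corresponding shares of *H2-K1* were 77.4% and 47.6% (39.7 to 55.5%) and in upper HF-like wells 78.4% and 45.9% (34.3 to 57.9%). For *Tap1* and *Tapbp* the thinned shares in lower HF-like wells (11.7%, 7.08 to 17.8%, and 9.74%, 5.55 to 15.6%) had intervals that overlapped with those of IFE I-like wells (16.5%, 11.1 to 23%, and 14.6%, 9.61 to 21.0%) and of upper HF-like wells (25.7%, 16.2 to 37.2%, and 17.6%, 9.70 to 28.2%). The T cell gene *Cd3g* was found in 4 of 154 lower HF-like wells (2.6%) and in 1.3% after thinning, against 88.4% of thinned T cell-like wells. The shares of *B2m* and *H2-K1* in the lower HF were above the share of *Cd3g*. Few wells of a plate hold *Cd3g*, so its share sets no background for genes found in most wells. Intervals are exact Clopper-Pearson intervals over wells and cover counting error only, since wells of a mouse are not replicates.

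The low class I values were not shared by all lower HF-like wells. This class consisted of 2 clusters, a larger cluster led by *Cd34* (114 wells, 4 mice) and a smaller cluster led by *Aspn*, the gene of the matrix protein asporin (40 wells, of which 38 from mice 2 to 4 entered sums). The split was looked at with its values in view and is a description with no test. In the *Cd34*-led cluster *B2m* was at 852, 2400, 1490 and 1800 CPM in mice 1 to 4. In the *Aspn*-led cluster it was at 6160, 6550 and 5150 CPM in mice 2 to 4, below the upper HF-like wells of the same mouse (7150, 6910 and 6190 CPM at the same scaling), with 2 of the 3 within the range of IFE I-like wells (4200 to 6230 CPM), and 2.57, 4.40 and 2.86 times the value of the *Cd34*-led cluster of the same mouse. *H2-K1* was at 142, 402, 195 and 227 CPM in the *Cd34*-led and at 991, 914 and 807 CPM in the *Aspn*-led cluster, 2.47, 4.69 and 3.56 times as high. *Tap1* was higher in the *Aspn*-led cluster of mice 2 and 3 (330 and 503 against 57.4 and 30.1 CPM) but not of mouse 4 (33.6 against 125 CPM). *Tapbp* was higher in the *Aspn*-led cluster of all 3 mice (99.1, 183 and 336 against 38.3, 150 and 141 CPM).

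Both clusters were high for *Postn* (4910 to 6120 CPM in the *Cd34*-led and 3800 to 6030 CPM in the *Aspn*-led cluster), whereas *Cd34* separated them (1780 to 2870 against 229 to 841 CPM). *Ifngr1* was low in both, at 62.6 to 95.7 CPM and 45.7 to 67.2 CPM, against 418 to 638 CPM in IFE I-like wells. *Nlrc5* rested on 5 transcripts in each cluster. *Psmb8* was at 0, 120 and 39.1 CPM in the *Cd34*-led cluster of mice 2 to 4 and at 198, 320 and 134 CPM in their *Aspn*-led cluster.

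**Figure D3:**
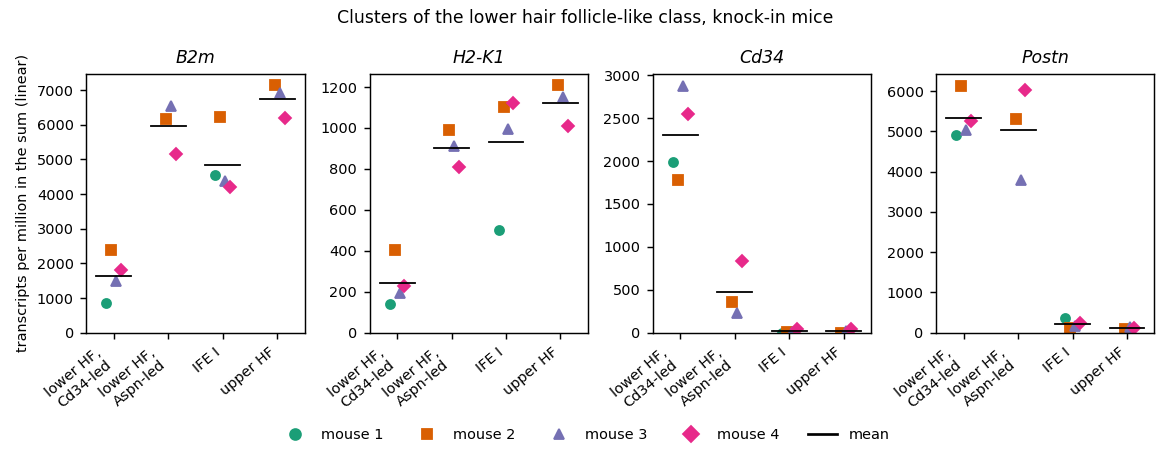
*B2m*, *H2-K1*, *Cd34* and *Postn* in the *Cd34*-led and *Aspn*-led clusters of the lower HF-like class beside IFE I-like and upper HF-like wells, summed per knock-in mouse, in TMM-scaled CPM on linear axes that start at 0; each symbol is 1 mouse and the bar the mean. The *Aspn*-led sums of *B2m* (5150 to 6550) lie far above the *Cd34*-led sums (852 to 2400), while *Postn* is high in both.

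The traced mice gave the same comparisons in animals that the knock-in fits did not use. *B2m* was at 3040 and 2050 CPM in lower HF-like wells of mice 1 and 2, at 5700 and 4700 CPM in IFE I-like wells and at 5890 and 6470 CPM in upper HF-like wells, without overlap. *H2-D1*, which was tested here, was at 98.8 and 120 CPM in the lower HF, 256 and 222 CPM in IFE I, 386 and 351 CPM in upper HF and 178 and 274 CPM in T cell-like wells. *H2-K1* was at 631 and 494 CPM in the lower HF against 960 and 813 CPM in IFE I and 1330 and 1410 CPM in upper HF. *Tap1* was at 76.0 and 72.1 CPM in the lower HF, against 131 and 159 CPM in IFE I and 319 and 126 CPM in upper HF. *Tapbp* went the other way against IFE, at 304 and 372 CPM in the lower HF, 286 and 209 CPM in IFE I and 154 and 118 CPM in IFE II, but 585 and 450 CPM in upper HF. The lower HF-like class of the traced mice was a single *Cd34*-led cluster.

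**Figure D4:**
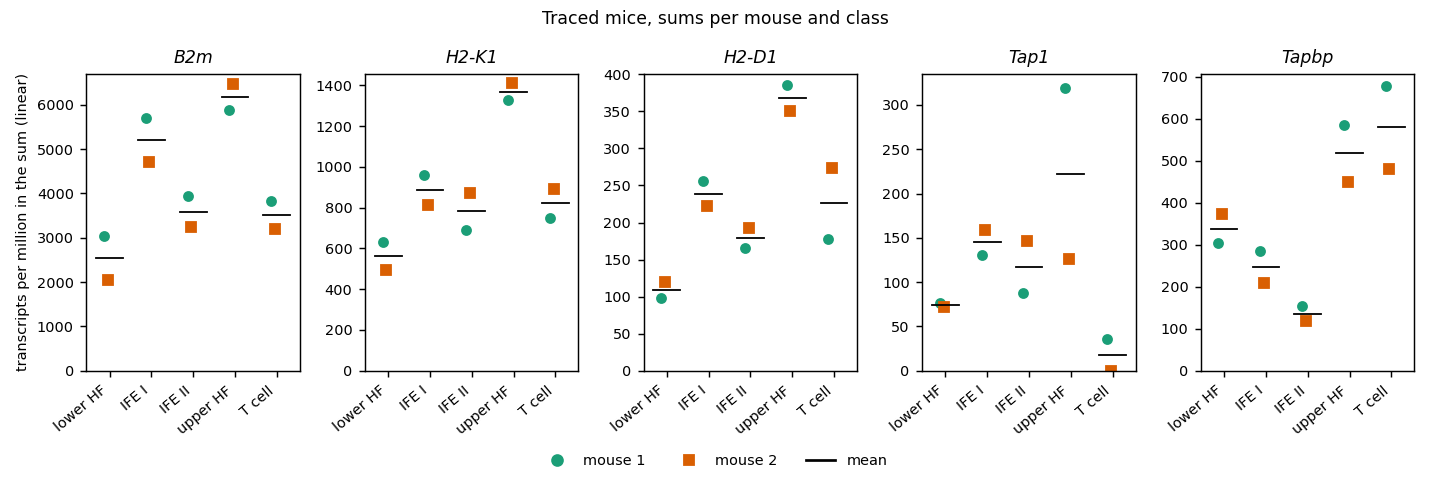
*B2m*, *H2-K1*, *H2-D1*, *Tap1* and *Tapbp* in the wells of each class, summed per traced mouse, in TMM-scaled CPM on linear axes that start at 0; each symbol is 1 mouse and the bar is the mean. *B2m*, *H2-K1* and *H2-D1* are lowest in lower HF-like wells and highest in upper HF-like wells, while *Tapbp* is lowest in IFE II-like wells.

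Against upper HF, 3 of 5 members tested were lower in the lower HF of the traced mice, with 12.5% of 3552 genes called in either direction and 5.69% called lower. The log2 fold change was -1.28 ± 0.233 for *B2m* (adjusted p = 0.000405, edgeR), -1.29 ± 0.283 for *H2-K1* (adjusted p = 0.00255, edgeR) and -1.73 ± 0.397 for *H2-D1* (adjusted p = 0.00365, edgeR). *Tap1* (-1.58 ± 0.554, adjusted p = 0.0633, edgeR) and *Tapbp* (-0.61 ± 0.338, adjusted p = 0.302, edgeR) missed the threshold. Against IFE I, 2 of 5 members were lower, with 15% of genes called in either direction and 6.11% called lower: *B2m* (-1.03 ± 0.231, adjusted p = 0.00280, edgeR) and *H2-D1* (-1.11 ± 0.380, adjusted p = 0.0487, edgeR). The call of *H2-D1* was lost when the mouse was a block in edgeR (-1.12, adjusted p = 0.0612), with DESeq2 (-1.05, adjusted p = 0.182) and in 7 further edgeR alternatives (adjusted p = 0.0559 to 0.158). It held with observed barcodes. *H2-K1* (-0.66 ± 0.276), *Tap1* (-0.95 ± 0.528) and *Tapbp* (0.44 ± 0.331) missed the threshold. With wells classed by marker transcripts no member passed against either class (*B2m* -0.73 against IFE I and -0.85 against upper HF).

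Against IFE II the only member called was *Tapbp*, which was higher in the lower HF (1.29 ± 0.402, adjusted p = 0.0328, edgeR), with 13% of genes called in either direction and 7.71% called higher. This call was lost with DESeq2 (adjusted p = 0.0645) and, in edgeR, with no filter (adjusted p = 0.0854) and by marker transcripts (0.82, adjusted p = 0.203). Against T cells none of the 5 members passed edgeR's test, none had an unadjusted p under 0.05 and DESeq2 called none, with 27.3% of genes called. *Tap1* was at 35.7 and 0 CPM in T cell-like wells, that is 1 transcript in both mice together.

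*H2-T23* was found at a handful of transcripts, 5 and 4 in lower HF-like wells (38.0 and 24.0 CPM), 5 and 2 in IFE I-like, 1 and 6 in upper HF-like, and none in IFE II-like wells of traced mice 1 and 2. It did not pass the filter of the main edgeR test, and DESeq2, run without this filter, did not call it.

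The share of wells with *B2m* was 85.0% (exact 95% interval 76.5 to 91.4%) of 100 lower HF-like and 99.2% (95.7 to 100.0%) of 126 IFE I-like wells of the traced mice, and 72.0% (62.1 to 80.5%) and 95.2% (89.9 to 98.2%) after thinning to 1000 transcripts. *H2-D1* was found in 18% of lower HF-like and 46.8% of IFE I-like wells, or 3.0% (0.623 to 8.52%) and 23% (16.0 to 31.4%) after thinning. For *H2-K1* the thinned shares, 34.0% (24.8 to 44.2%) and 44.4% (35.6 to 53.6%), overlapped. *Cd3g* was found in 0 of 100 lower HF-like wells, which allows a share of up to 3.62% (upper exact limit).

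In the traced mice 15 pathway genes and 3 interferon response genes were tested. Against IFE I, 2 pathway genes and 1 interferon response gene were called lower. Over all genes tested 15% were called in either direction, a share near that of the pathway genes, and 6.11% were called lower. *Ifngr1* was again lower in the lower HF than in IFE I (15.2 and 36.0 against 276 and 470 CPM, log2 fold change -3.74 ± 0.586, adjusted p = 8.94e-05, edgeR), as was *Psmb8* (-1.93 ± 0.507, adjusted p = 0.0102, edgeR). *Nlrc5* was at 38.0 and 42.0 CPM in the lower HF and 85.4 and 31.7 CPM in IFE I, with overlap. *Ifitm3* was lower as well (60.8 and 144 against 488 and 209 CPM, -1.73 ± 0.491, adjusted p = 0.0171, edgeR). Of these calls against IFE I, *Ifngr1* kept its own under every alternative run. *Psmb8* lost it with DESeq2 (adjusted p = 0.309) and with wells classed by marker transcripts (-1.24, adjusted p = 0.151, edgeR), and *Ifitm3* likewise (adjusted p = 0.0797 with DESeq2, and -0.53, adjusted p = 0.604, by marker transcripts in edgeR). Against IFE II no pathway gene passed edgeR's test, 4 of 15 had an unadjusted p under 0.05 and DESeq2 called none; with the mouse as a block *Ifngr1* was called lower. Against upper HF, 2 of 15 pathway genes were called lower. Over all genes tested 12.5% were called in either direction, a share near that of the pathway genes, and 5.69% were called lower. The 2 genes were *Hspa5*, the endoplasmic reticulum chaperone BiP (-1.40 ± 0.340, adjusted p = 0.00597, edgeR), and *Irf1*, an interferon-induced transcription factor (-2.92 ± 0.852, adjusted p = 0.0229, edgeR), and the block added *Psmb8*. Both calls were lost at a clustering resolution of 0.5 (-0.68, adjusted p = 0.332, and -2.02, adjusted p = 0.170, edgeR) and by marker transcripts (-0.97, adjusted p = 0.0856, and -1.45, adjusted p = 0.365, edgeR). Against T cells 4 of 15 pathway genes and 1 of 3 interferon response genes were called lower. Over all genes tested 27.3% were called in either direction, a share near that of the pathway genes. The pathway genes *Hspa5*, *Irf1* and *Jak1* and the interferon response gene *Bst2* were among those called lower. *Irf1* was at an adjusted p of 0.0467 (edgeR) that rose above the threshold with DESeq2 (0.0647) and with 4 edgeR alternatives (0.0626 to 0.233). The most abundant pathway genes of the traced mice were *Hspa5*, *Calr*, *Canx*, *Jak1* and *Pdia3*, a disulfide isomerase of the loading complex, at mean levels of 387, 366, 342, 317 and 282 CPM, and of the interferon response genes *Ifi27*, *Ifitm3*, *Irf9*, *Gbp2* and *Ifi35*, at 258, 157, 38.8, 36.9 and 24.5 CPM. The medians over the 15 genes were -0.17 against IFE I, -0.23 against IFE II, -0.69 against upper HF and -1.15 against T cells, beside 0.00, 0.04, 0.02 and 0.42 over all genes.

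The difference of the lower HF comparisons between the experiments was tested directly in a fit of both, chosen after seeing the data. For *B2m* the fold change in traced mice minus that in knock-in mice was -0.22 ± 0.494 (log2) against IFE I and 0.04 ± 0.509 against upper HF, and for *H2-K1* it was 0.60 ± 0.549 and 0.24 ± 0.566. For *Tapbp* it was 1.33 ± 0.895 against IFE I and for *Nlrc5* 1.72 ± 0.886. None of 4766 genes passed this test (edgeR), and among the class I members no unadjusted p was under 0.05. The standard errors are too wide to show that the experiments are alike.

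Within IFE I-like wells, traced and knock-in mice were compared to ask whether the levels differed between experiments, which cannot be told apart from the plates, the tdTomato allele, zygosity, tamoxifen and sex. None of the 5 members passed edgeR's test, 1 had an unadjusted p under 0.05, and DESeq2 called none, with 0.842% of 4275 genes called. The largest difference was that of *H2-D1*, at 256 and 222 CPM in traced and 97.9, 137, 27.2 and 38.6 CPM in knock-in mice, scaled within each experiment. Its fitted log2 fold change was 1.83 ± 0.576 (adjusted p = 0.193, edgeR) and passed without knock-in mouse 2 (2.53, adjusted p = 0.0134). *Tap1* was at -0.98 ± 0.445, *B2m* at 0.13 ± 0.284, *H2-K1* at -0.08 ± 0.371 and *Tapbp* at 0.03 ± 0.728.

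The bulk libraries addressed whether basal cells that express *Troy*, which the labels give as ITGA6bright *Troy*-EGFP+, differ from cells that the labels give as ITGA6bright without EGFP. The gates were set on ITGA6 protein, and the RNA did not follow the label in EGFP- cells. *Itga6* was at 139 and 221 CPM in EGFP+, 118 and 178 CPM in viable and 30.2 and 87.5 CPM in EGFP- libraries. The EGFP- values rest on 4 and 15 counts. *Tap1* was at 93.8 and 54.1 CPM (counts scaled to a common library total, with TMM factors) in EGFP+ cells of mice 1 and 2, at 242 and 134 CPM in EGFP- cells and at 74.8 and 85.6 CPM in all viable cells. EGFP+ cells thus overlapped with viable cells, and EGFP- cells were above both. *Tap1* was lower in EGFP+ than in EGFP- cells (log2 fold change -1.25 ± 0.375, adjusted p = 0.0484, edgeR), the only call among 4 members tested, with 7.05% of 4653 genes called in either direction and 4.06% called lower.

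*B2m* was at 1510 and 1530 CPM in EGFP+ cells, 1990 and 2290 CPM in EGFP- cells and 1460 and 1700 CPM in viable cells. The EGFP- values were the highest, but the difference from EGFP+ cells missed the threshold (-0.50 ± 0.294, adjusted p = 0.386, edgeR). *H2-K1* was at 121 and 90.2 CPM in EGFP+, 67.9 and 152 CPM in EGFP- and 67.7 and 87.9 CPM in viable cells, with overlap throughout (-0.08 ± 0.385 for EGFP+ against EGFP-). *Tapbp* was at 276 and 253 CPM, 370 and 309 CPM and 360 and 340 CPM in the same order (-0.35 ± 0.287). *H2-D1* held 0 to 4 counts in a library and did not pass the filter of the main edgeR test.

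**Figure D5:**
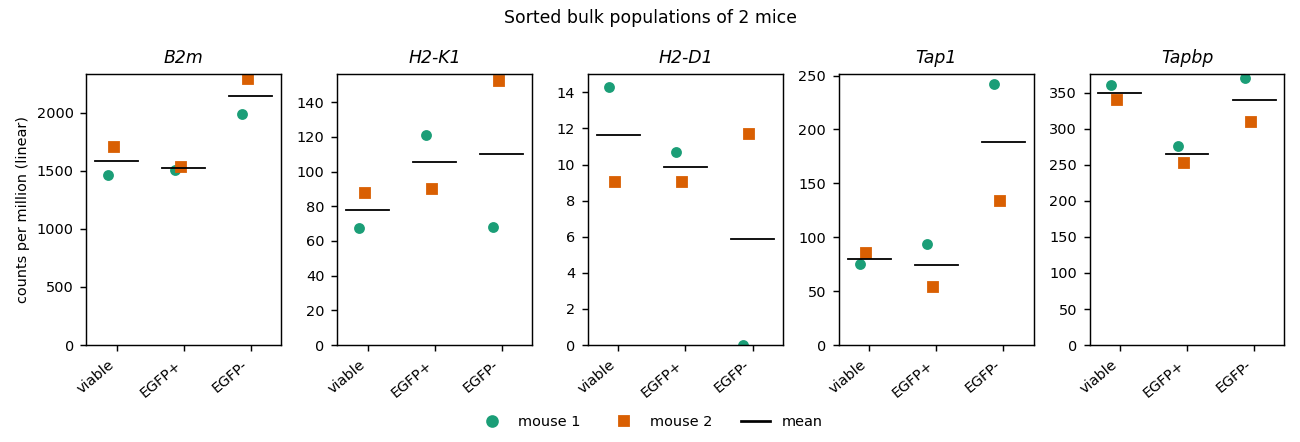
*B2m*, *H2-K1*, *H2-D1*, *Tap1* and *Tapbp* in the 3 sorted bulk populations, in TMM-scaled CPM on linear axes that start at 0; each symbol is the library of 1 mouse and the bar is the mean of 2 mice. *Tap1* is highest in both ITGA6bright EGFP- libraries (242 and 134), *H2-K1* overlaps between all populations, and *H2-D1* rests on 0 to 4 counts in a library.

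In bulk samples, fewer cells of a type and less RNA per cell cannot be told apart. The *Tap1* call was lost with DESeq2 (-1.21, adjusted p = 0.470) and, in edgeR, with no filter (-1.07, adjusted p = 0.152) and with only the 2 populations compared (-1.25, adjusted p = 0.120). It was also lost without viable replicate 1 (-1.22) or 2 (-1.23), without EGFP+ replicate 1 (-1.73) or 2 (-0.93) and without EGFP- replicate 1 (-0.77), whereas it held without EGFP- replicate 2. Markers of leukocytes moved with it: the summed level of 12 leukocyte genes was 110 and 104 CPM in EGFP+ libraries, where 5 of 12 were detected, 1650 and 1480 CPM in EGFP- libraries, where 12 and 10 were detected, and 716 and 420 CPM in viable libraries, where 11 were detected. Markers of the upper HF moved with it as well. The summed level of the 6 of 7 upper HF markers with a row was 716 and 883 CPM in EGFP+, 7710 and 4030 CPM in EGFP- and 4510 and 3610 CPM in viable libraries, and all 6 were detected in each library. The 8 lower HF markers summed to 8960 and 10300 CPM in EGFP+, 13200 and 15000 CPM in EGFP- and 10100 and 13000 CPM in viable libraries. Most of each sum was *Krt15* (8190 and 9400 CPM in EGFP+, 10900 and 10700 CPM in EGFP-). *Sox9* (622 and 794 against 1800 and 3640 CPM), *Lhx2*, *Nfatc1* and *Postn* were also lower in EGFP+ than in EGFP- libraries. *Cd34* was at 0 counts in both EGFP- libraries and at 3 and 10 counts in viable libraries. *Postn* overlapped between EGFP- (128 and 146 CPM) and viable libraries (99.8 and 149 CPM). The 7 IFE I markers (26900 and 26700 against 17100 and 16900 CPM) and the 6 IFE II markers (3330 and 3130 against 1530 and 922 CPM) were higher in EGFP+ than in EGFP- libraries. Of the upper HF markers, *Krt79* was at 287 and 329 CPM in EGFP+ and 3900 and 1670 CPM in EGFP- cells, and *Defb6* at 83.1 and 108 against 2650 and 927 CPM. The part of these lists in the differences of *Tap1* and of *Ifitm3*, which is described further on, was not tested.

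Between EGFP+ and viable cells none of the 4 members passed edgeR's test, none had an unadjusted p under 0.05 and DESeq2 called none, with 0.473% of 4653 genes called. Between EGFP- and viable cells none passed either, 1 had an unadjusted p under 0.05 and DESeq2 called none, with 1.78% of genes called and 0.924% called higher. *Tap1* had a log2 fold change of 1.18 ± 0.364 (adjusted p = 0.110, edgeR), which passed when the mouse was a block (1.13, adjusted p = 0.0487) and without EGFP- replicate 2 (1.52, adjusted p = 0.00233).

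Of the 29 pathway genes 16 were tested in bulk and edgeR called none in any of the 3 comparisons. An unadjusted p under 0.05 was reached by 2 for EGFP+ against EGFP-, by 1 for EGFP+ against viable and by 4 for EGFP- against viable cells, and DESeq2 called none. For EGFP+ against EGFP- cells the values of 15 of 16 were below 0, with a median of -0.50 beside -0.04 over all genes, and with the mouse as a block *Jak2*, an interferon receptor kinase, was called lower. *Nlrc5* and *Ifngr1*, low in the lower HF-like wells, overlapped between EGFP+ (37.5 and 54.1 CPM, and 77.7 and 85.7 CPM) and EGFP- cells (90.6 and 46.6 CPM, and 98.1 and 70.0 CPM). Of 3 interferon response genes tested, *Ifitm3* was called, at 442 and 338 CPM in EGFP+, 981 and 752 CPM in EGFP- and 417 and 322 CPM in viable cells. It was lower in EGFP+ than in EGFP- cells (-1.14 ± 0.293, adjusted p = 0.0220, edgeR) and higher in EGFP- than in viable cells (1.23 ± 0.292, adjusted p = 0.0331, edgeR). The first call was lost without EGFP+ replicate 1 (-1.32) or 2 (-0.93). The second was lost without viable replicate 1 (1.37) or 2 (1.03) and without EGFP+ replicate 1 (1.21) or 2 (1.19). The first was also lost with DESeq2 (adjusted p = 0.0722) and, in edgeR, with no filter (adjusted p = 0.0775) and with only the 2 populations compared (adjusted p = 0.0725). The second was lost in edgeR with no filter (adjusted p = 0.0792) and with only the 2 populations compared (adjusted p = 0.110).

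Across the 15 keratinocyte sums of the knock-in mice, the mean log2(CPM + 10) of the class I members was used to find genes of a like pattern among 4069 others with a mean of at least 50 CPM. The members themselves followed this mean unequally, with a Pearson correlation of 0.949 for *Tap1*, 0.93 for *H2-K1*, 0.836 for *B2m*, 0.61 for *H2-D1*, 0.522 for *Tapbp* and -0.0458 for *H2-T23*, each being part of the mean. The 10 genes most like it were *Cldn1*, a tight junction claudin (0.926), *Psme4*, a proteasome activator (0.918), *Acsl5* (0.906), *Brap* (0.885), *Cct3* (0.884), *St13* (0.879), *Cox6c*, *Tnfrsf18* and *Ndufb5* (0.878 each) and *Snrnp70* (0.875). These are descriptions over sums that share mice, libraries and depth.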

How the data were processed

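Single cells were sorted into 384-well plates and sequenced by SORT-seq, and bulk populations by CEL-Seq2. Per the submitters' processing notes, reads were mapped with BWA 0.6.2-r126 to mm10. The deposited bulk tables hold whole-number counts made by the authors, which the study's methods call raw read counts while describing primers with molecular barcodes. The deposited plates hold estimated (expected) transcript counts, in which the authors corrected the number of molecular barcodes for barcodes drawn more than once (4096 possible barcodes). Neither is normalized. How reads that match several genes were assigned is not given in the sources used here.

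Wells with at least 1000 transcripts, without ERCC and mitochondrial rows, were clustered with Seurat 5.3.0 and sctransform 0.4.2 (20 principal components, resolution 0.8, 2 rounds, necrotic and non-epidermal clusters left out of the second), separately for knock-in and traced mice, without class I, pathway and interferon genes. Clusters were named from fixed markers; the naming rules were tightened once first clusters had been looked at. No doublet caller was run. No wells held identical values. Transcripts were summed per mouse and class (at least 5 wells), rounded and tested with edgeR 4.0.16 (quasi-likelihood, TMM, filterByExpr, Benjamini-Hochberg over all genes tested, threshold 0.05, R 4.3.3), all classes of an experiment in 1 fit and the 6 bulk libraries in another. DESeq2 1.42.0 was an alternative. Fold changes are log2 of the group named first over the group named second (lower HF, EGFP+, EGFP- against viable, traced against knock-in). Scripts were tested on simulated data with 200 genes changed at a log2 fold change of 2. In knock-in mice 57.5% of these were recovered against IFE I and 29.5% against T cells. For traced mice the share was 69.5% against IFE I, for traced against knock-in IFE I 33% and for EGFP+ against EGFP- 78.5%. A missing call therefore does not show equal levels.

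Members and lists were chosen with earlier results of these data known. Named genes were the members, and the genes of the pathway and interferon lists that passed the threshold or were among the 5 most abundant, and the 10 genes most like the members; a few others are named beside counts. Classes and populations of the same mouse come from the same animal, so the mouse pairs them by design. As a check, deviations of a mouse's samples from their group means correlated at 0.0554 to 0.0933 in bulk, 0.224 to 0.547 in knock-in and -0.031 to 0.0449 in traced mice. The main fits held no term for the mouse, so their p-values ignore this pairing and treat the sums or libraries of a mouse as independent. These p-values measure the spread within groups of 2 to 4 mice, pooled over the groups of a fit. Fits with the mouse as a block were an alternative, and calls that differ between the fits depend on this choice. The test of the difference between the experiments was added after seeing the data. Shares over all genes are given for calls only. For directions within mice and for groups without overlap no such share was counted, so that these are descriptions. A list of cell barcodes was not used. A result on 1 pathway gene is not reported here.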

Additional observations from a re-analysis of the deposited data

Results flagged for a closer look

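*B2m* in the IFE I-like sums of the 4 knock-in mice had 1 value far from the others. Mouse 2 was at 5890 CPM and the other mice at 4220 to 4490 CPM, and its gap to the nearest of them made up 0.838 of the whole range. Chance alone singles out about 1 in 20 groups in this way, and 12 groups were checked. Without mouse 2 the log2 fold change of *B2m* in the lower HF against IFE I was -0.86, beside -0.78 with all mice, and passed the threshold in neither case.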

How the results depend on the processing

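Of 692 values of members under the alternatives, 589 kept their direction and their side of the threshold, 50 lost and 23 gained a call, and 30 changed sign, all of them values that passed no test. The cause of these changes was not tested. Every traced sum had at least 12 wells, so that a minimum of 10 wells changed nothing there. In the counts of members called, EGFP+ against EGFP- fell from 1 to 0 with DESeq2, with no filter on low counts and with only the 2 populations compared. Lower HF against IFE I went from 1 to 2 with DESeq2, to 3 with both experiments in 1 fit, and to 0 with no filter, with wells of at least 2000 transcripts and with wells classed by marker transcripts. Lower HF against upper HF went from 3 to 0 under the same last 3 alternatives. Lower HF against T cells went from 0 to 2 with DESeq2, with its size factors in edgeR and with both experiments, and to 1 with class I genes kept for clustering. In traced mice, IFE I went from 2 to 1 with DESeq2, size factors, no filter, 2000 transcripts, resolution 0.5, 30 principal components or class I genes kept, and to 0 by marker transcripts. There IFE II went from 1 to 0 with DESeq2, no filter and marker transcripts, and upper HF from 3 to 0 by marker transcripts. For IFE I of traced against knock-in mice, no filter gave 1 in place of 0.

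With the mouse as a replicate block, the counts were 1 for EGFP- against viable cells (0 without it), 3 against IFE I, 1 against IFE II and 2 against T cells in knock-in mice and 1 against IFE I in traced mice. Upper HF gained *Tapbp*, and the block changed no other call of a member. No paired analysis was possible for traced against knock-in IFE I because these are different mice.

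Leaving out 1 library or mouse gave 0 to 1 members called for EGFP+ against EGFP-, for EGFP- against viable and for traced against knock-in IFE I. It gave 0 to 2 against IFE I and T cells, 0 to 3 against upper HF and 0 throughout for EGFP+ against viable cells and IFE II. An arm left with 1 sample is assumed to vary like the other groups. In traced mice this could not be fitted, since no residual degrees of freedom remained. For members that changed sign when 1 library was left out, the other end of the range was -0.47 (*H2-K1*, EGFP+ against EGFP-), -0.18 (*B2m*) and -0.57 (*Tap1*, both EGFP+ against viable), 0.90 (*H2-K1*) and -0.20 (*Tapbp*, both EGFP- against viable), -0.09 (*Tapbp*, IFE II), -0.84 (*Tap1*, T cells) and, for traced against knock-in IFE I, 0.29 (*B2m*), -0.29 (*H2-K1*) and 0.59 (*Tapbp*).

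The values that changed sign were *H2-K1* for EGFP+ against EGFP- (0.02 with DESeq2, 0.09 with no filter, 0.13 without EGFP+ replicate 2 and 0.73 without EGFP- replicate 2). Against viable cells they were *B2m* (0.07) and *Tap1* (0.04) without viable replicate 2 and *Tap1* (0.21) without EGFP+ replicate 2 for EGFP+ cells, and *H2-K1* (-0.28) and *Tapbp* (0.03) without EGFP- replicate 2 for EGFP- cells. *Tapbp* against IFE II was 0.11 with the block, 0.08 with DESeq2, 0.07 with size factors, 0.09 with 2000 transcripts, 0.03 with 30 components, 0.18 by marker transcripts, 0.02 with the 4 keratinocyte classes only, 0.55 with both experiments and 0.19 and 0.08 without mouse 2 and mouse 4. Against T cells, *B2m* was 0.01 by marker transcripts and *Tap1* 0.38 without mouse 4 and 0.09 with both experiments, and in traced mice *B2m* was 0.10 and *H2-K1* 0.26 by marker transcripts. For traced against knock-in IFE I, *Tapbp* was -0.09 with 10 wells in a sum, -0.09 and -0.41 without knock-in mouse 1 and 2 and -0.20 without traced mouse 1, *B2m* was -0.02 without traced mouse 1 and *H2-K1* 0.07 without traced mouse 2.

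Over all genes tested, the number called moved by more than 1.5 times as follows. For EGFP+ against EGFP- it was 328, and 136 with DESeq2, 151 with only these populations and 131 to 751 on leaving out 1 library. For EGFP+ against viable it was 22, and 12 with DESeq2, 43 with no filter, 49 with the block, 66 with only these populations and 7 to 124 without 1 library. For EGFP- against viable it was 83, and 49, 133, 163, 38 and 27 to 464 in the same order. In knock-in mice the counts against IFE I, IFE II and upper HF were 227, 352 and 186, and 477, 639 and 400 with the block and 585, 701 and 574 with both experiments. Against T cells the count was 860, and 1537 with both experiments. Leaving out 1 mouse gave 95 to 233, 169 to 364, 42 to 180 and 376 to 969 against these 4 classes. By marker transcripts the count against IFE I was 104, and in traced mice 239 in place of 532. For traced against knock-in IFE I it was 36, and 65 with DESeq2, 291 with no filter, 23 with 10 wells in a sum and 0 to 282 without 1 mouse.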
